A study of Mus musculus with 6 samples.

Results

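The nuclear genes for the subunits of oxidative phosphorylation were followed in Lin- progenitor and Gr1+Mac1+ myeloid fractions of bone marrow from mice with no, 1 or both copies of Diap1. The members were all genes whose symbol begins with Nduf and one of the letters a, b, c, s or v and a number, equals Sdha, Sdhb, Sdhc or Sdhd, or begins with Uqcr, Cox and a number from 4 to 8, or Atp5. The rule used names only, and 85 of the 23746 gene loci in each library matched it. By known function, 35 are subunits of complex I, 4 of complex II, 8 of complex III, 20 of complex IV or its tissue-specific forms, and 15 of complex V. Ndufa4, named for complex I, is counted with complex IV, where it is now placed, together with its paralogue Ndufa4l2 and with Cox7a2l. The name rule also caught 3 genes that are not subunits, Cox4nb (now Emc8, a subunit of an endoplasmic reticulum membrane complex), Atp5s and Atp5sl.

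Oxidative phosphorylation is carried out in the inner mitochondrial membrane. Complexes I and II take electrons from NADH and succinate and pass them through ubiquinone to complex III, and cytochrome c carries them on to complex IV, where oxygen is reduced. Complexes I, III and IV pump protons, and complex V, the ATP synthase, uses the return flow to make ATP. Some core subunits are encoded in mitochondrial DNA and were not analysed here, while the genes below are nuclear and their products are imported. Several complex IV subunits exist in a common form and in a form restricted to tissues such as heart and skeletal muscle, lung or testis. In blood formation, stem cells and mature neutrophils are known to rely largely on glycolysis, and dividing progenitors have more active mitochondria.

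All mice were C57BL/6 and 12 weeks old, with the genotypes Diap1 -/- (KO), Diap1 +/- (Het) and wild type (WT). Diap1 is the older symbol of the gene for the formin mDia1, which nucleates actin filaments. For each genotype the marrow of 4 mice was combined, cells bearing both Gr1 and Mac1 were captured on magnetic beads, and uncommitted progenitors were enriched from the rest by negative selection. Each genotype and fraction gave 1 RNA-seq library, so there were 6 libraries from 3 pools, and the allele's design is not given in the labels. Values are FPKM, fragment numbers divided by transcript length and by the library's mapped total, with the 95% interval deposited for each. These intervals hold no spread between mice or pools. Their width did not follow counting alone for every gene. The complex I subunit Ndufv3 had 114 FPKM (87.0 to 140) in Het and 119 (107 to 130) in WT Lin- cells.

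The libraries held an implied 8610000 to 11530000 fragments each, and the median member had an implied 579 to 1101 fragments. Diap1 stood at 6.07 FPKM in KO, 24.2 in Het and 36.0 in WT Lin- cells and at 4.07, 34.1 and 57.1 in the KO, Het and WT Gr1+Mac1+ cells. Of 8 neutrophil and monocyte markers tested, 8 were higher in Gr1+Mac1+ cells, and of 7 progenitor markers, among them Kit, 5 were higher in Lin- cells, both by limma's adjusted p. Of all genes tested, 30.4% were called higher in Gr1+Mac1+ and 51.6% in Lin- cells. The progenitor markers Cd34 and Flt3 were not called (log2 ratios 0.29 and 0.33, limma adjusted p = 0.0586 and 0.123). The Het Lin- library stood apart: its 9 neutrophil and monocyte markers summed to 7749 FPKM, against 335 in KO and 288 in WT Lin- cells, and 129403 to 156273 in Gr1+Mac1+ cells. Values without the Het pool are therefore given beside the main counts. The 5 B lineage markers summed to 10.2 to 23.2 FPKM in Lin- libraries and to 232 to 270 in Gr1+Mac1+ libraries. The 5 T and NK markers summed to 31.4 to 38.6 FPKM in Lin- and 160 to 183 in Gr1+Mac1+ libraries, and the 5 macrophage markers to 0.580 to 7.05 in Lin- and 109 to 148 in Gr1+Mac1+ libraries. Stromal and megakaryocyte markers ran the other way: 4 of 4 stromal markers (335 to 649 FPKM summed in Lin-, 11.7 to 24.8 in Gr1+Mac1+ libraries) and 4 of 4 megakaryocyte markers (190 to 379 in Lin-, 34.5 to 46.1 in Gr1+Mac1+ libraries) were called so by limma. Of 8 erythroid markers 5 were called higher in Lin- cells and 2, Alas2 and Slc4a1, lower there, with sums of 626 to 659 FPKM in Lin- and 284 to 466 in Gr1+Mac1+ libraries. The sums mix both directions. Singly, their log2 ratios of Lin- over Gr1+Mac1+ cells ran from -2.12 (Alas2) to 3.18 (Klf1), with a median of 2.02. None of these stromal, megakaryocyte and erythroid markers was at 0, and their part in the differences between fractions was not tested. In bulk samples of this kind, a lower level from fewer cells of a type and from less RNA per cell cannot be told apart.

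Subunit transcripts were higher in Lin- than in Gr1+Mac1+ cells in all 5 complexes. Summed over the members, they made up 2.88% of the library's total FPKM in KO, 2.95% in Het and 2.89% in WT Lin- cells, against 1.53%, 1.55% and 1.53% in KO, Het and WT Gr1+Mac1+ cells. The 3 libraries of a fraction lay close together and the fractions did not overlap, with means of 2.91% ± 0.04 and 1.54% ± 0.008 (SD, n = 3 pools each), a ratio of 1.89. An exact permutation test within the 3 pools cannot go below p = 0.25, which is the value it gave. The ratio of the means was 2.31 for complex II, 2.04 for complex III, 2.03 for complex V, 1.84 for complex IV and 1.69 for complex I. The 10 most abundant genes of a library took 8.72% to 10.5% of its FPKM in Lin- cells and 25.1% to 27.8% in Gr1+Mac1+ cells, so values under other scalings are given with the counts that follow.

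**Figure D1:**
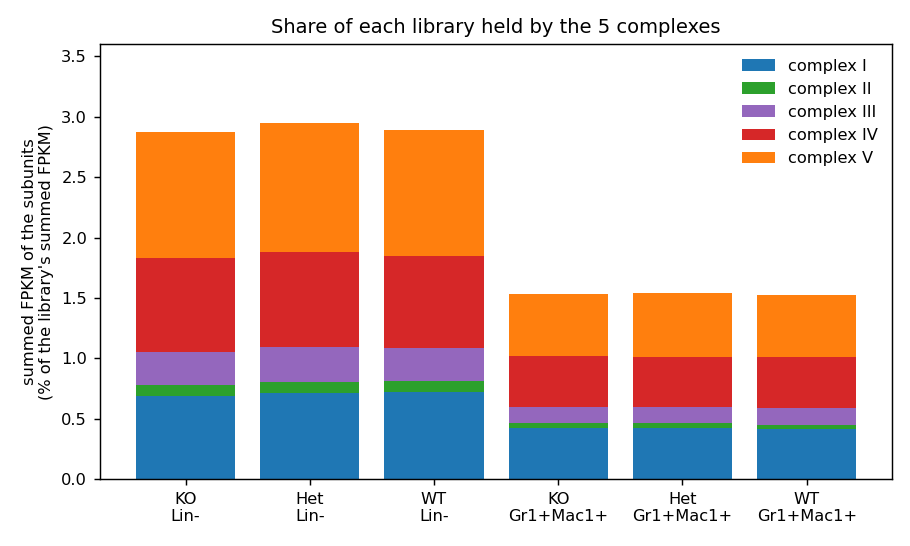
Summed FPKM of the subunits of each complex as a percentage of the library's summed FPKM, in KO, Het and WT Lin- libraries (left) and KO, Het and WT Gr1+Mac1+ libraries (right). Each bar is 1 library, and the whole bars stand near 2.9% in Lin- cells and near 1.5% in Gr1+Mac1+ cells, with little difference between genotypes.

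Gene by gene, 80 members could be tested, having status OK in every library and a mean of at least 1 FPKM. On the log2(FPKM + 1) scale, limma with the pool as a block and Benjamini-Hochberg adjusted p under 0.05 over 11489 genes called 66 members higher in Lin- cells, 2 higher in Gr1+Mac1+ cells and 12 in neither direction. The background was high, since 51.6% of all genes tested were called higher in Lin- cells and 30.4% higher in Gr1+Mac1+ cells. The members' median log2 ratio was 0.83, or 1.78-fold, against 0.33 for all genes tested, and 65 of the 80 lay above that median of all genes. At least 2-fold higher in Lin- cells were 29 members, or 36.2%, against 23.4% of all genes. Every Lin- library lay above every Gr1+Mac1+ library for 67 members (83.8%, against 54.1% of all genes), and the reverse held for 3 (3.75%, against 31.7%). Fold changes on this scale understate the change of low genes.

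The count depended on scaling. With libraries rescaled by the median ratio of all genes, the median of all genes moved to 0.03 and that of the members to 0.49. Then 56 members were called higher in Lin- cells against 12 called lower there, a split of 82.4% to the rest in place of 97.1%. Of the 11479 genes tested under this scaling, 4604 were called higher in Lin- cells and 4382 lower. With FPKM rescaled to TPM, the median of all genes moved to 0.45 and that of the members to 0.97. As TPM, 69 members were called higher in Lin- cells against 1 called lower there, and of all 12065 genes tested 6592 and 3302. Above the median of all genes, the members' median stood by 0.50 as deposited, 0.46 after median-ratio rescaling and 0.52 as TPM. Under these 3 scalings the medians of the 5 complexes stood 0.25 to 0.76 above that of all genes, with complex IV always the lowest. Without the Het pool, 66 members were higher in Lin- cells and 1 in Gr1+Mac1+ cells, with a median of 0.78. Of all 11489 genes, 5662 and 3345 were then called in these directions.

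**Figure D2:**
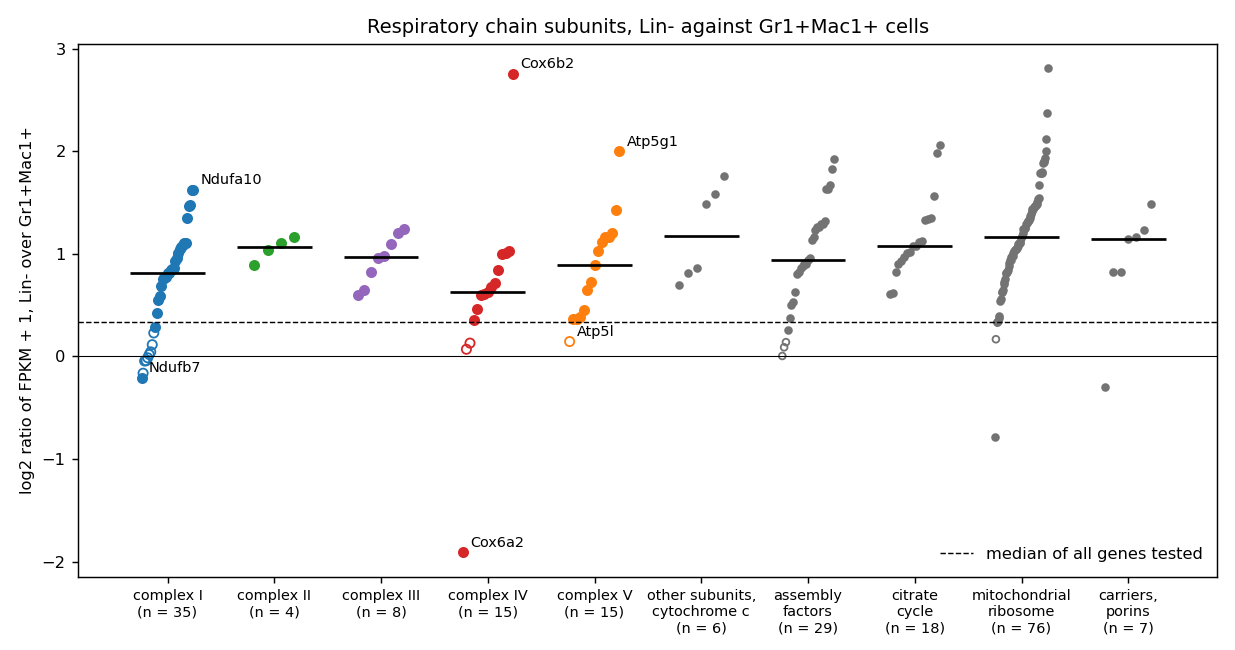
Log2 ratio of FPKM + 1, Lin- over Gr1+Mac1+ cells, averaged over 3 pools, for each tested subunit of complexes I to V (coloured points) and for 5 lists of other mitochondrial genes (grey points). Filled points were called by limma (adjusted p under 0.05), open points were not, short bars are medians, and the dashed line is the median of all genes tested, 0.33. Cox6b2 at 2.76 and Cox6a2 at -1.91 lie far from the rest of complex IV.

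Complex I, the NADH dehydrogenase, had 26 of its 35 subunits higher in Lin- cells, 1 higher in Gr1+Mac1+ cells and 8 called in neither direction, with a median log2 ratio of 0.81. After median-ratio rescaling, 23 of the 35 were called higher in Lin- cells against 8 called lower there. The 7 core subunits encoded in the nucleus, which hold the flavin and the iron-sulphur clusters, were all called higher in Lin- cells, with ratios from 0.59 to 1.47 and a median of 1.09. Among them Ndufv1, which binds the flavin and NADH, had 129, 129 and 136 FPKM in KO, Het and WT Lin- cells, against 48.5, 46.2 and 45.4 in KO, Het and WT Gr1+Mac1+ cells. The 28 accessory subunits were more spread out, from -0.21 to 1.62 with a median of 0.77, and 19 of them were higher in Lin- cells. With FPKM as deposited, the 9 complex I subunits not called higher in Lin- cells were thus all accessory ones. Whether core and accessory subunits differ as groups was not tested.

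The accessory subunits Ndufa10 and Ndufa12 had the highest ratios of complex I. Ndufa10 stood at 133 FPKM in KO, 143 in Het and 148 in WT Lin- cells, against 44.6 in KO, 45.7 in Het and 45.1 in WT Gr1+Mac1+ cells (log2 ratio 1.62 ± 0.06 SE, limma adjusted p = 0.000109). Ndufa12 stood at 140, 123 and 161 FPKM in KO, Het and WT Lin- cells, against 48.8, 45.9 and 40.7 in KO, Het and WT Gr1+Mac1+ cells (log2 ratio 1.62 ± 0.13 SE, limma adjusted p = 0.00036). For both genes the lowest Lin- library was more than 2-fold above the highest Gr1+Mac1+ library. At the other end was Ndufb7, a membrane-arm subunit with twin cysteine motifs (chromosome 8, 83566758 to 83571623, mm10). It had 157, 177 and 166 FPKM in KO, Het and WT Lin- cells and 196, 201 and 180 in KO, Het and WT Gr1+Mac1+ cells (log2 ratio -0.21 ± 0.07 SE, limma adjusted p = 0.0426). The groups did not overlap, but the call was lost without any 1 of the 3 pools (adjusted p 0.077 to 0.188), as TPM (0.342), without trend (0.0609) and without the level filter (0.0541). Ndufb11, also of the membrane arm, had 111, 106 and 105 FPKM in the KO, Het and WT Lin- libraries and 118, 119 and 124 in the KO, Het and WT Gr1+Mac1+ libraries, a ratio of -0.16 that was not called (limma adjusted p = 0.0608).

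Ndufa3 was the most abundant complex I transcript per length, with 311, 372 and 373 FPKM in KO, Het and WT Lin- cells and 346, 359 and 335 in KO, Het and WT Gr1+Mac1+ cells. Its fractions overlapped, and the ratio of 0.02 was not called. Ndufa11 was the least abundant, with 14.6, 15.0 and 16.6 FPKM in KO, Het and WT Lin- cells, against 11.3, 11.1 and 11.2 in KO, Het and WT Gr1+Mac1+ cells (ratio 0.43, limma adjusted p = 0.00432), but after median-ratio rescaling the ratio was 0.11 and not called (limma adjusted p = 0.219). Ndufa1, Ndufa6, Ndufa13, Ndufb3, Ndufs4 and Ndufv3 were the other subunits called in neither direction, with ratios from -0.04 to 0.23, and after median-ratio rescaling all 6 were below 0.

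Complex II, succinate dehydrogenase, is also an enzyme of the citrate cycle and has no subunit encoded in mitochondria. All 4 genes were higher in Lin- cells, in a narrow band of ratios from 0.89 to 1.17. The flavoprotein Sdha had 157, 157 and 168 FPKM in KO, Het and WT Lin- cells, against 70.5, 70.0 and 72.6 in KO, Het and WT Gr1+Mac1+ cells (ratio 1.17 ± 0.06 SE, limma adjusted p = 0.000123). The iron-sulphur subunit Sdhb had 114, 117 and 106 FPKM in KO, Het and WT Lin- cells, against 63.2, 58.2 and 59.0 in KO, Het and WT Gr1+Mac1+ cells. Both subunits were separated between fractions by more than their spread over pools. The membrane anchors followed, with Sdhc at 128 to 138 FPKM in Lin- and 59.7 to 67.2 in Gr1+Mac1+ cells (ratio 1.03). Sdhd had 147 to 159 FPKM in Lin- and 65.0 to 79.4 in Gr1+Mac1+ cells (ratio 1.10).

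Complex III, which passes electrons from ubiquinol to cytochrome c, had all 8 genes higher in Lin- cells, with a median ratio of 0.97. Its 2 core proteins and the Rieske iron-sulphur protein Uqcrfs1 had a median of 1.09, and the 5 small subunits a median of 0.83. Core protein Uqcrc2 had 142, 147 and 151 FPKM in KO, Het and WT Lin- cells, against 60.5, 63.8 and 64.4 in KO, Het and WT Gr1+Mac1+ cells (ratio 1.21). The small subunit Uqcr11 had the highest ratio of the complex, 1.24 ± 0.07 SE (limma adjusted p = 0.000146), with 214 to 224 FPKM in Lin- and 86.9 to 96.7 in Gr1+Mac1+ cells. The hinge protein Uqcrh was the most abundant, at 370, 400 and 407 FPKM in KO, Het and WT Lin- cells, against 262, 232 and 255 in KO, Het and WT Gr1+Mac1+ cells, and its ratio was among the lowest, 0.65. Uqcrfs1 was the least abundant, at 83.0 to 92.6 FPKM in Lin- and 41.0 to 49.0 in Gr1+Mac1+ cells. Uqcrb, a small subunit near the ubiquinone site, had the lowest ratio, 0.60 ± 0.15 SE (limma adjusted p = 0.0183), and its pools differed: the ratio was 0.44 in the KO, 1.01 in the Het and 0.34 in the WT pool. After median-ratio rescaling its ratio was 0.26 and no longer called.

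Complex IV, cytochrome c oxidase, had 12 of 15 tested members higher in Lin- cells, 1 higher in Gr1+Mac1+ cells and 2 called in neither direction, with a median ratio of 0.62. After median-ratio rescaling, 10 were called higher in Lin- cells against 2 called lower there. Of the 12 common forms, 11 were higher in Lin- cells, with a median of 0.65. Cox4i1 was the most abundant gene of the complex over the 6 libraries, with 594, 597 and 564 FPKM in KO, Het and WT Lin- cells, against 409, 353 and 378 in KO, Het and WT Gr1+Mac1+ cells (ratio 0.62 ± 0.08 SE, limma adjusted p = 0.00154). Cox5b had the highest ratio of the common forms, 1.03, with 353 to 377 FPKM in Lin- and 167 to 197 in Gr1+Mac1+ cells. Cox7a2l, a protein related to Cox7a2, was the exception among common forms. It had 152, 159 and 152 FPKM in KO, Het and WT Lin- cells and 154, 132 and 155 in KO, Het and WT Gr1+Mac1+ cells, and its ratio of 0.07 was not called. After median-ratio rescaling it was -0.27 and called (limma adjusted p = 0.0401).

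The largest ratio of all 80 members belonged to Cox6b2, the form of subunit 6b known from testis and sperm (chromosome 7, 4751794 to 4753094, mm10). It had 216 (196 to 236), 194 (175 to 213) and 182 (165 to 200) FPKM in KO, Het and WT Lin- cells, with deposited intervals in parentheses, against 17.6 (11.6 to 23.7), 36.1 (28.1 to 44.1) and 35.4 (27.9 to 42.9) in KO, Het and WT Gr1+Mac1+ cells. Every Lin- library was thus far above every Gr1+Mac1+ library. The fit gave a log2 ratio of 2.76 ± 0.27 SE, or 6.76-fold (limma adjusted p = 0.000711), and 2.36 to 2.97 without 1 pool. Its ubiquitous partner Cox6b1 had 500, 510 and 564 FPKM in KO, Het and WT Lin- cells, against 322, 337 and 322 in KO, Het and WT Gr1+Mac1+ cells, a ratio of 0.68 or 1.60-fold. Of the summed FPKM of both forms, Cox6b2 held 30.2%, 27.5% and 24.5% in KO, Het and WT Lin- cells, against 5.18%, 9.67% and 9.89% in KO, Het and WT Gr1+Mac1+ cells. The share averaged 27.4% ± 2.87 over Lin- libraries and 8.25% ± 2.66 over Gr1+Mac1+ libraries (SD, n = 3 pools each). The longest exact run that the annotated transcripts of both genes share is 14 bases.

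The promoter windows of this pair are shown because the 2 forms differ most between the fractions. Both lie on chromosome 7 (RefSeq, GRCm38.p6, minus strand), at chr7:4753045-4753344 for Cox6b2 and chr7:30626065-30626364 for Cox6b1, each with 250 bases before and 50 after the annotated start. Capitals mark 3 motifs searched on both strands, the NRF1 site (GCGCA and GCGC with any 1 base between them), the ETS core CCGGAAG (also matched by GABPA) and the CCAAT box CCAAT.
Cox6b2: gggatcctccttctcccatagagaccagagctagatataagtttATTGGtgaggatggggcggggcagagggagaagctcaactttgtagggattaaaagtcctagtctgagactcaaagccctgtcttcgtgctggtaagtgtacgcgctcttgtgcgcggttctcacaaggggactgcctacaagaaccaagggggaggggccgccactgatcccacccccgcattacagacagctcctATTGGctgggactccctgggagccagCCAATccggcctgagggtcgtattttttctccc
Cox6b1: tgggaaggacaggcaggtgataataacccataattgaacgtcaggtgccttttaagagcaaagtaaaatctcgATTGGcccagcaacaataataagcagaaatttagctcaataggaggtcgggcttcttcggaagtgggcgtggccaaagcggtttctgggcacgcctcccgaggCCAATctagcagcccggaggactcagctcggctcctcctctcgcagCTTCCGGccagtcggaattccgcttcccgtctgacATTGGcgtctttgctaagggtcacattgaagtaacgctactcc
The Cox6b1 window held an ETS core and CCAAT boxes, and the Cox6b2 window CCAAT boxes only. A match is a description of the letters, not a shown binding site.

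Cox6a2, the heart and skeletal muscle form of subunit 6a (chromosome 7, 128205435 to 128206366, mm10), ran the other way. It had 2.66 (1.29 to 4.03), 2.35 (1.09 to 3.61) and 0.646 (0 to 1.29) FPKM in KO, Het and WT Lin- cells, against 7.74 (5.29 to 10.2), 10.6 (8.03 to 13.3) and 9.55 (7.22 to 11.9) in KO, Het and WT Gr1+Mac1+ cells. All Gr1+Mac1+ libraries were above all Lin- libraries, and the ratio was -1.91 ± 0.29 SE, or 3.76-fold higher in Gr1+Mac1+ cells (limma adjusted p = 0.00313). Its locus overlaps that of the integrin gene Itgad by 69 bases. Itgad had 0.078 to 0.244 FPKM in Lin- and 1.93 to 3.55 in Gr1+Mac1+ cells, and its part in the value was not tested, since how overlapping fragments were counted is not given in the sources used here. Of 5 skeletal muscle markers, Acta1 (skeletal actin) had 7.97, 9.29 and 8.79 FPKM in KO, Het and WT Lin- cells and 23.5, 26.6 and 20.3 in KO, Het and WT Gr1+Mac1+ cells. Myh4 was listed at 0 in all libraries, Mb at 0 to 0.768, Ckm at up to 0.189 and Tnnt3 at up to 2.22 FPKM. Cox6a2 made up 0.315% ± 0.184 of the summed FPKM of the 6a forms in Lin- cells and 3.07% ± 0.684 in Gr1+Mac1+ cells (SD, n = 3 pools each). The common form Cox6a1 had 586, 604 and 609 FPKM in KO, Het and WT Lin- cells, against 331, 290 and 273 in KO, Het and WT Gr1+Mac1+ cells (ratio 1.01 ± 0.09 SE, limma adjusted p = 0.000522).

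The remaining tissue-specific forms were near or at the floor in both fractions. Cox7a1, the muscle form of subunit 7a, had 1.49, 2.82 and 3.17 FPKM in KO, Het and WT Lin- cells and 2.71, 2.71 and 1.20 in KO, Het and WT Gr1+Mac1+ cells, with fractions that overlapped and no call. Cox4i2, the lung form, was listed at 0, 0.877 and 0.140 FPKM in KO, Het and WT Lin- cells and at 0.842, 0.281 and 0.372 in KO, Het and WT Gr1+Mac1+ cells. Neither gene exceeded 1.05% of the summed FPKM of its family in any library. Cox7b2 and Cox8c, testis forms, were listed at 0 in all 6 libraries, and Cox8b, a muscle form, at 0 in the Lin- libraries and at up to 0.46 FPKM in Gr1+Mac1+ cells. Ndufa4l2, a paralogue of Ndufa4 known to respond to low oxygen, was listed at 0.106 FPKM in KO Lin- cells and at 0 elsewhere. Their common partners were abundant, with Cox8a at 503 to 529 FPKM in Lin- and 312 to 360 in Gr1+Mac1+ cells, Cox7b at 147 to 160 and 71.8 to 83.3, and Ndufa4 at 490 to 527 and 286 to 333. Cox7a2 had 158 to 171 FPKM in Lin- and 123 to 133 in Gr1+Mac1+ cells, a ratio of 0.36 that was 0.02 and not called after median-ratio rescaling (limma adjusted p = 0.798).

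**Figure D3:**
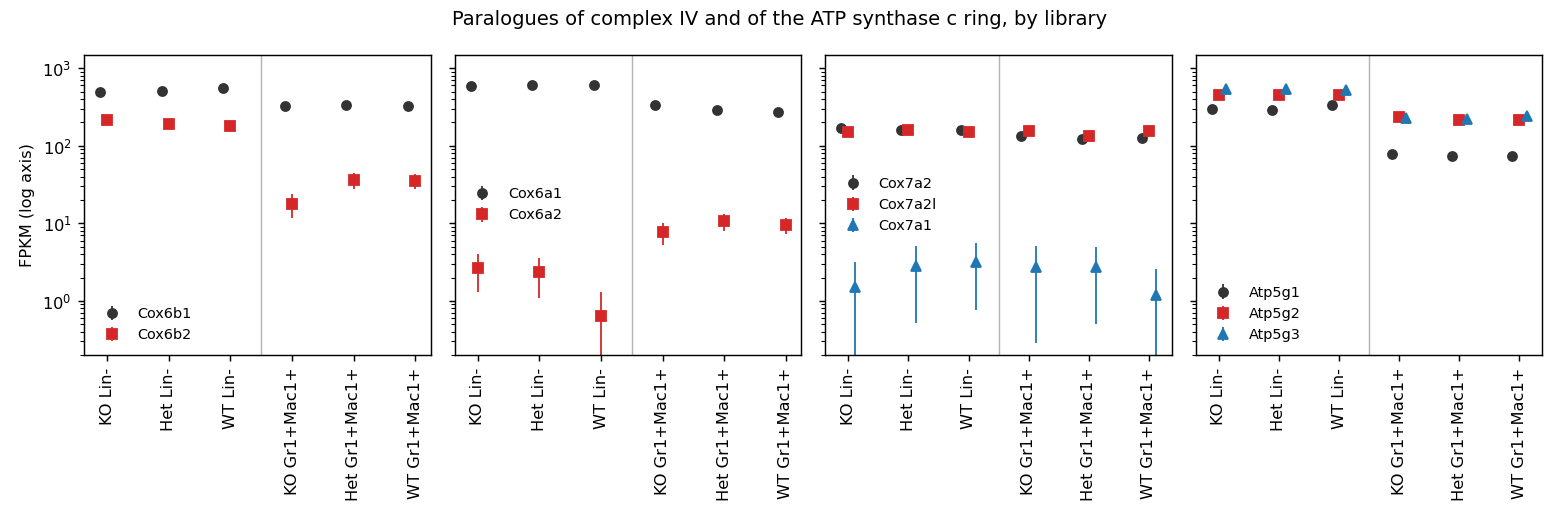
FPKM on a log axis of 4 paralogue families in the KO, Het and WT Lin- and KO, Het and WT Gr1+Mac1+ libraries, with deposited 95% intervals as bars (bars reaching lower are cut at the lower edge). Cox6b2 and Atp5g1 drop more steeply between the fractions than their paralogues, and Cox6a2 lies higher in Gr1+Mac1+ cells.

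Complex V, the ATP synthase, had 14 of 15 subunits higher in Lin- cells and a median ratio of 0.89. After median-ratio rescaling, 10 were called higher in Lin- cells against 1 called lower there. The catalytic beta subunit Atp5b was the most abundant member of all complexes in Lin- cells, with 960, 972 and 993 FPKM in KO, Het and WT Lin- cells, against 358, 355 and 372 in KO, Het and WT Gr1+Mac1+ cells (ratio 1.43 ± 0.06 SE, limma adjusted p = 0.000116). The 5 subunits of the F1 head and its central stalk had a median ratio of 1.12, from 0.38 for Atp5e, the epsilon subunit, to 1.43. The 4 subunits of the peripheral stalk, which holds the head still, had a median of 0.41. Within the stalk, Atp5o stood at 1.16, and Atp5f1, Atp5h and Atp5j at 0.37, 0.46 and 0.36. After median-ratio rescaling the calls of Atp5e (0.04), Atp5f1 (0.03), Atp5h (0.12) and Atp5j (0.03) were lost, with limma adjusted p from 0.193 to 0.822. Atp5j was the least abundant subunit over all libraries, with 116, 131 and 121 FPKM in KO, Het and WT Lin- cells, against 101, 85.5 and 98.7 in KO, Het and WT Gr1+Mac1+ cells (limma adjusted p = 0.0246), and its call was also lost without the WT pool (ratio 0.40, limma adjusted p = 0.0794). Atp5l, a small membrane subunit, had 393, 378 and 402 FPKM in KO, Het and WT Lin- cells, against 365, 338 and 358 in KO, Het and WT Gr1+Mac1+ cells. Its libraries did not overlap between fractions, but the ratio of 0.14 was not called (limma adjusted p = 0.0842), and it was -0.19 and called after median-ratio rescaling.

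The c ring, which turns as protons pass, is built from a single mature protein encoded by 3 genes that differ in their import sequences. Atp5g1 (chromosome 11, 96072793 to 96075694, mm10) had 297, 289 and 334 FPKM in KO, Het and WT Lin- cells, against 79.3, 73.6 and 73.9 in KO, Het and WT Gr1+Mac1+ cells. The fractions were far apart, with a ratio of 2.004 ± 0.08 SE, or 4.01-fold (limma adjusted p = 0.000109), the highest of the complex. Atp5g2 had 447, 454 and 457 FPKM in KO, Het and WT Lin- cells, against 237, 214 and 213 in KO, Het and WT Gr1+Mac1+ cells (ratio 1.03). Atp5g3 had 543, 540 and 524 FPKM in KO, Het and WT Lin- cells, against 230, 223 and 241 in KO, Het and WT Gr1+Mac1+ cells (ratio 1.21). Atp5g1 thus held 23.6% ± 1.52 of the summed FPKM of the 3 genes in Lin- and 14.3% ± 0.278 in Gr1+Mac1+ cells (SD, n = 3 pools each). Atp5g2 held 34.98% ± 0.362 and 41.9% ± 1.46, and Atp5g3 41.4% ± 1.32 and 43.8% ± 1.73. Annotated transcripts of Atp5g1 and Atp5g2 share an exact run of up to 21 bases.

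Promoter windows of the members were compared because NRF1 and the ETS factor GABPA are known regulators of respiratory chain genes. Of the 85 members 69 had a window in the RefSeq table. A gene counted where any of its windows matched. The NRF1 letters were in 17 of the 69 (24.6%), against 5.19% of all 27025 genes with a window. Of the 9039 genes tested in these libraries that had a window, 12.1% held them. The ETS core CCGGAAG was in 16 (23.2%), against 9.93% of all genes with a window and 21.5% of the tested ones. CCAAT was in 31 (44.9%), against 41.1% and 43.9%. The 17 tested members with the NRF1 letters had a median log2 ratio between fractions of 0.93 (0.11 to 1.35), and the 50 without them 0.78 (-0.21 to 2.76). The medians were 0.66 in the 16 with the ETS core and 0.85 in the 51 without it, and 0.70 in the 30 with CCAAT and 0.86 in the 37 without it. Those with the highest ratios, Cox6b2 and Atp5g1, hold no NRF1 letters in this window. Windows are shown for Cox6a1, which holds all 3 motifs, for Atp5k, an abundant ATP synthase subunit with NRF1 and ETS letters, and for Atp5g1 and Atp5b, the complex V members with the highest ratios, which hold CCAAT boxes only. They lie at chr5:115348909-115349208, chr5:108434350-108434649 and chr11:96075582-96075881 on the minus strand and at chr10:128083057-128083356 on the plus strand (RefSeq, GRCm38.p6), and capitals mark the same 3 motifs.
Cox6a1: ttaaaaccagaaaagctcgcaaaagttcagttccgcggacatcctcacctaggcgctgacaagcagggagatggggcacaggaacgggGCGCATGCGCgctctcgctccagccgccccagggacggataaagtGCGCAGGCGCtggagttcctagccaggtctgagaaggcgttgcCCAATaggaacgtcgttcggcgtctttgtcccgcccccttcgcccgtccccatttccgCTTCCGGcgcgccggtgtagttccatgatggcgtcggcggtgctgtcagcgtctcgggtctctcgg
Atp5k: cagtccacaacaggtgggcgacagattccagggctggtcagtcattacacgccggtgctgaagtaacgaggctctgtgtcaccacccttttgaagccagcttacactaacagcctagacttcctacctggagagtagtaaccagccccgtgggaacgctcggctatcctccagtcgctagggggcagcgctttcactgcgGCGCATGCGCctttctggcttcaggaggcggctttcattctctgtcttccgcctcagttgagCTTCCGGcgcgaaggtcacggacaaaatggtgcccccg
Atp5g1: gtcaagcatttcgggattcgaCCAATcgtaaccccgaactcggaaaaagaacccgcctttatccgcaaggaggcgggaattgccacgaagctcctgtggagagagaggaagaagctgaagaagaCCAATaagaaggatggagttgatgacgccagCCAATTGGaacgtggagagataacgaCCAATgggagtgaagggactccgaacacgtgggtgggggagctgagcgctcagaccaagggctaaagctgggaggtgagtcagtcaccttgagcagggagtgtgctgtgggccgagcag
Atp5b: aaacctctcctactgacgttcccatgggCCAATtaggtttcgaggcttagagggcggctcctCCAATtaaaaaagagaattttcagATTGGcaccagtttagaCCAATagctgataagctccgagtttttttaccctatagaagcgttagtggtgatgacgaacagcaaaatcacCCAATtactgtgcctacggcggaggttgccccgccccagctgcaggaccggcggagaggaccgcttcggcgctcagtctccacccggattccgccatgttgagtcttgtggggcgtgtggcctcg
Atp5k had 793, 845 and 842 FPKM in KO, Het and WT Lin- cells, against 442, 458 and 432 in KO, Het and WT Gr1+Mac1+ cells (ratio 0.89).

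The 3 genes caught by name that are not subunits were low. Atp5s had 3.88 to 5.10 FPKM in Lin- and 1.06 to 1.79 in Gr1+Mac1+ cells (ratio 1.15), and Cox4nb had 9.46 to 9.81 FPKM in Lin- and 3.69 to 4.91 in Gr1+Mac1+ cells (ratio 1.03), both called higher in Lin- cells by limma. Atp5sl had 7.53 to 8.78 FPKM in Lin- and 8.11 to 8.67 in Gr1+Mac1+ cells, and its ratio of -0.06 was not called.

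Other nuclear genes of mitochondrial function were also higher in Lin- cells. The background was 51.6% of all genes tested called higher there, with a median ratio of 0.33. Of the 6 tested carriers and subunits outside the name rule, 6 were higher in Lin- cells with a median ratio of 1.17. They include Atpif1, the inhibitor of the ATP synthase, with 767, 754 and 706 FPKM in KO, Het and WT Lin- cells, against 216, 208 and 233 in KO, Het and WT Gr1+Mac1+ cells (ratio 1.76), and Cyc1 (cytochrome c1, 1.48), Ndufab1 (acyl carrier protein, 1.58) and Cycs (cytochrome c, 0.86). Assembly factors had 26 of 29 higher in Lin- cells (median 0.94), led by Lrpprc (1.93), which stabilises mitochondrial mRNA, Ndufaf2 (1.83), Ndufaf4 (1.68) and Ecsit (1.63). The citrate cycle and pyruvate dehydrogenase genes had 18 of 18 higher (median 1.08), led by Idh3a (2.06), Suclg2 (1.98), Dlat (1.56) and Fh1 (1.34). Mitochondrial ribosomal proteins had 74 of 76 higher in Lin- cells and 1 lower there (median 1.16), led by Mrpl52 (2.81) and Mrpl38 (2.38). After median-ratio rescaling, 23 of the 29 assembly factors, 18 of the 18 citrate cycle genes and 65 of the 76 ribosomal proteins were called higher in Lin- cells. Of all 11479 genes tested under this scaling, 4604 were. The medians of complexes I and IV, 0.81 and 0.62, were the lowest among these lists and the 5 complexes; the difference was not tested.

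Regulators of mitochondrial biogenesis had 11 of 13 tested genes higher in Lin- cells and 1 higher in Gr1+Mac1+ cells (median 1.32), and 8 and 2 after median-ratio rescaling. Myc had 88.6, 69.3 and 81.9 FPKM in KO, Het and WT Lin- cells, against 13.6, 15.7 and 14.5 in KO, Het and WT Gr1+Mac1+ cells (ratio 2.37). Pprc1, a coactivator related to PGC-1, stood at 2.40, the mitochondrial helicase gene Peo1 at 2.34 and Tfam, which packs mitochondrial DNA, at 1.39. The factors named for the motifs had smaller ratios, with Nrf1 at 0.47 and Gabpa at 0.45. The median of all genes tested was 0.33, and 51.6% of them were called higher in Lin- cells. Esrra, an orphan nuclear receptor that acts on oxidative genes, was higher in Gr1+Mac1+ cells, with 9.10, 8.81 and 8.44 FPKM in KO, Het and WT Lin- cells, against 16.5, 16.0 and 13.1 in KO, Het and WT Gr1+Mac1+ cells (ratio -0.72, limma adjusted p = 0.00106). Of the 7 tested carriers and porins, 6 were higher in Lin- cells (median 1.14), with Vdac1 at 1.48 and the phosphate carrier Slc25a3 at 1.23, and Ucp2, an uncoupling protein family member, was higher in Gr1+Mac1+ cells (ratio -0.30, limma adjusted p = 0.0239). The call of Ucp2 was lost as TPM (limma adjusted p = 0.182), without the WT pool (0.114) and without the Het pool (0.0632).

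Loss of Diap1 was set against WT within each fraction. With 1 library per group there is no test and no replicate check. Ratios carry only errors taken from the deposited intervals, called counting SE below. A gene was counted as higher or lower where it reached a 1.5-fold difference on that same log2 scale, with at least 5 FPKM in the higher library, deposited intervals that did not overlap and status OK. In KO against WT Lin- cells, 0 of 80 members were higher and 0 lower, where 0.448% and 0.329% of all genes were. In Het against WT Lin- cells the counts were also 0 and 0, with a background of 2.18% and 0.11%. In KO against WT Gr1+Mac1+ cells, 0 were higher and 1 lower (background 0.258% and 0.773%), and in Het against WT Gr1+Mac1+ cells again 0 and 1 (background 0.169% and 0.48%). The KO and Het comparisons of a fraction share their WT library.

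The subunits as a body differed little by genotype. Their median log2 ratio was -0.05 in KO against WT Lin- cells, with 56 of 80 members below 0 (all genes, 0.003, with 5377 of 10933 below 0). It was -0.01 in Het against WT Lin- cells, with 44 below 0 (all genes, -8.1e-05, with 5469 of 10933 below 0). In Gr1+Mac1+ cells it was 0.04 in KO, with 30 below 0 (all genes, 0.006, with 5410 of 11250 below 0). In Het Gr1+Mac1+ cells it was -0.07, with 56 below 0 (all genes, -0.0009, with 5641 of 11250 below 0). The median furthest from 0 amounted to -4.49% in level. Between complexes the medians ran from -0.07 for complex I to -0.001 for complex III in KO Lin- cells, and from -0.09 for complex III to 0.13 for complex II in KO Gr1+Mac1+ cells. As a share of the library, complex V stood at 1.05%, 1.07% and 1.04% in KO, Het and WT Lin- cells and at 0.508%, 0.527% and 0.517% in KO, Het and WT Gr1+Mac1+ cells.

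**Figure D4:**
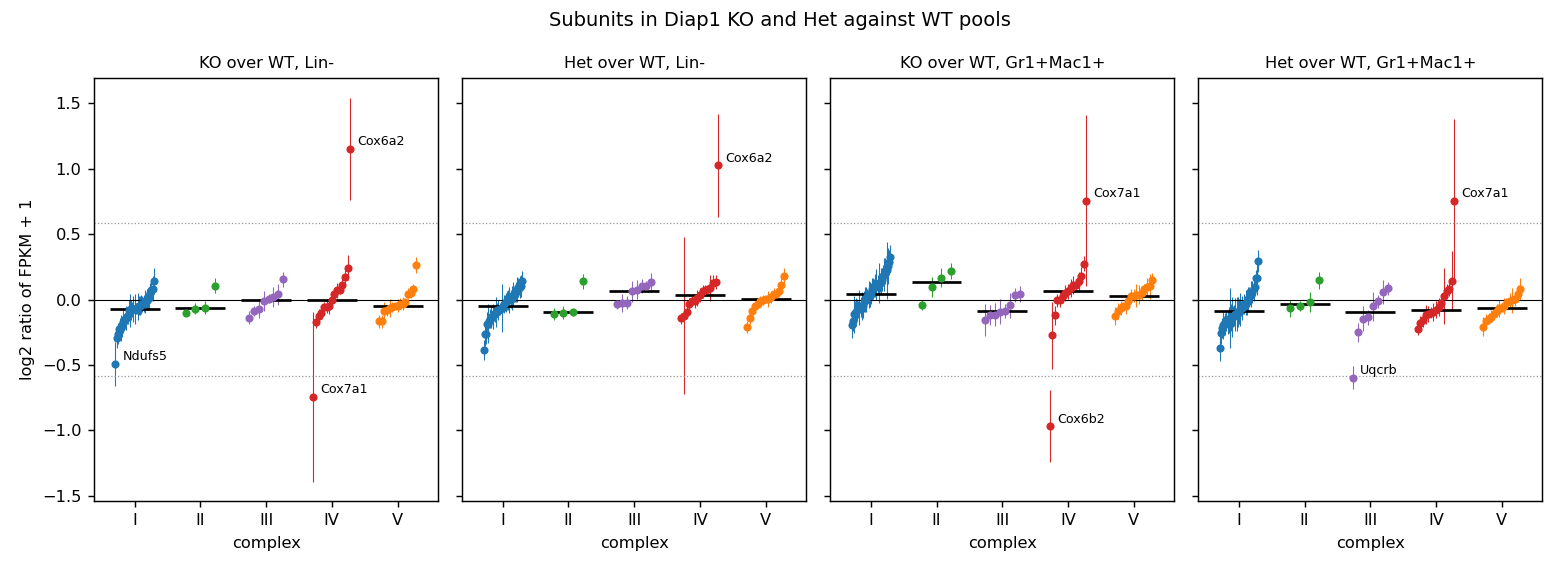
Log2 ratio of FPKM + 1 for each subunit of complexes I to V in KO over WT and Het over WT, in Lin- (left pair) and Gr1+Mac1+ cells (right pair). Points are genes with counting standard errors, short bars are medians of a complex, and dotted lines mark 1.5-fold. Most subunits lie close to 0, and Cox6b2 in KO and Uqcrb in Het Gr1+Mac1+ cells lie past the lower line.

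The member past the size rule in KO Gr1+Mac1+ cells was Cox6b2, at 17.6 FPKM in KO and 36.1 in Het, against 35.4 in WT (KO over WT log2 ratio -0.97 ± 0.28 counting SE). The intervals of KO (11.6 to 23.7) and WT (27.9 to 42.9) did not overlap. In Lin- cells the same gene had its highest value in KO, 216 FPKM against 182 in WT (ratio 0.24 ± 0.10 counting SE), so the direction was opposite in the other fraction of the same pool. The 8 erythroid markers summed to 284 FPKM in KO and 323 in Het, against 466 in WT Gr1+Mac1+ cells. In Lin- cells they summed to 641, 659 and 626 in KO, Het and WT, and none of the 8 was at 0. Each of the 8 was lower in KO and in Het than in WT Gr1+Mac1+ cells. For example, Klf1 had 7.61, 11.8 and 17.2 FPKM and Alas2 90.3, 94.5 and 124 in KO, Het and WT Gr1+Mac1+ cells. The part of erythroid transcripts in the Cox6b2 value was not tested.

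In Het Gr1+Mac1+ cells the member past the rule was Uqcrb (chromosome 13, 66900621 to 66905350, mm10), at 98.9 FPKM (89.1 to 109) in Het and 139 (126 to 151) in KO, against 150 (139 to 162) in WT (Het over WT ratio -0.60 ± 0.09 counting SE). In Lin- cells it stood at 189, 200 and 190 FPKM in KO, Het and WT. The Het Gr1+Mac1+ value thus lay below the other 2 of its fraction, but the ratio was close to the 1.5-fold line and passed neither with a pseudocount of 5 nor as TPM. Ndufs3, a core subunit of complex I, was next, at 35.5 FPKM in Het and 40.3 in KO, against 46.2 in WT Gr1+Mac1+ cells (-0.37 and -0.19). Ndufb5 followed at 41.4 in Het against 49.4 in WT Gr1+Mac1+ cells (-0.25).

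Of the members with the largest ratios that did not pass the rule, several were low. In Lin- cells Cox6a2 had ratios of 1.15 in KO and 1.03 in Het over WT, and Cox7a1 of -0.74 in KO, all from fewer than 4 FPKM. In Gr1+Mac1+ cells Cox7a1 stood at 0.76 above WT in both KO and Het. Atp5s stood at 1.79 FPKM in KO and 1.60 in Het, against 1.06 in WT Gr1+Mac1+ cells, and Cox4nb at 4.07 in KO and 4.91 in Het, against 3.69 in WT. Among abundant genes the ratios were small, with Atp5e at 459 in KO and 434 in Het, against 382 FPKM in WT Lin- cells (0.26 and 0.18), and Ndufs6 at 176 in KO and 195 in Het, against 176 in WT (Het over WT 0.14). Ndufa12 was lower in Het Lin- cells, with 123 FPKM in Het and 140 in KO, against 161 in WT (Het over WT -0.39). Ndufa5 followed with 112 FPKM in Het against 135 in WT Lin- cells (-0.27), and Ndufa8 had 95.4 in KO against 117 in WT Lin- cells (-0.29). Ndufv3 had 136 FPKM in KO and 112 in Het, against 109 in WT Gr1+Mac1+ cells (KO over WT 0.32).

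Ndufs5, an accessory subunit of complex I (chromosome 4, 123712710 to 123718186, mm10), had the lowest ratio of any abundant member in KO Lin- cells, -0.49 ± 0.17 counting SE, with 45.5 FPKM in KO and 56.6 in Het, against 64.4 in WT. Its locus shares 5452 bases with that of BC002163, which ran the other way, with 58.5 FPKM in KO and 42.3 in Het, against 37.96 in WT Lin- cells. Summed, the 2 loci had 104, 98.8 and 102 FPKM in KO, Het and WT Lin- cells and 58.7, 68.5 and 77.6 in KO, Het and WT Gr1+Mac1+ cells. BC002163 carried the deposited status for low data in all 6 libraries. Ndufs5 as deposited is uncertain for this reason. Overlapping loci were found for 13 members in all, and many of these short, abundant transcripts have processed copies in the genome, for which the way shared fragments were assigned is not given in the sources used here.

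Ndufa2, an accessory subunit of complex I, lies 1100 kb from the targeted gene Diap1 on chromosome 18. It had 185, 188 and 191 FPKM in KO, Het and WT Lin- cells, against 161, 148 and 152 in KO, Het and WT Gr1+Mac1+ cells, with little difference between genotypes. The ratio between fractions was -0.05 after median-ratio rescaling, and the call was lost there (limma adjusted p = 0.52) and without the WT pool (limma adjusted p = 0.0694).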

How the data were processed

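Total RNA of 2 marrow fractions from 3 pools was sequenced, 1 library per group (6 libraries, 4 mice per pool). Deposited values are FPKM with interval bounds and a status, per the file headers; TopHat2 2.0.7, Cufflinks 2.0.2 and mm10 are named per the submitters' processing notes, without their roles, and the sources used here give neither annotation nor strand use. Implied fragments come from the width of the deposited intervals, and stand for fragment numbers only where an interval holds counting error alone. For Ndufv3 they were 72.5 in Het and 427 in WT Lin- cells, at similar FPKM. Low depth limits the tissue-specific forms most.

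Members, lists and alternatives were chosen with earlier results of these data known. The comparison of fractions used log2(FPKM + 1) in limma 3.58.1 (R 4.3.3), with a mean-variance trend and with pool as blocking factor, since each pool's mice gave both of its libraries (per the labels' protocols), in 11489 loci with a mean of at least 1 FPKM and status OK. Because each pool has its own genotype, the interaction of genotype with fraction is part of the 2 residual degrees of freedom. Deviations of both fractions of a pool correlated across genes by -0.01 (KO), -0.06 (Het) and 0.10 (WT). P-values measure only how the difference between fractions varied over these pools, with each gene's variance drawn towards the trend of all genes tested. The fit was also run on simulated data with few shifted genes and no differences between pools. In these data most genes were called and the pools differed in genotype, so that run cannot vouch for the calls. Genes with all values in every library are the largest and smallest ratios, the most and least abundant of each complex, the tissue-specific families, those past the size rule and the 3 highest and lowest genotype ratios; some are given as ranges. Promoter windows came from RefSeq (GRCm38.p6). Tables and figures were made in Python 3.11.15 (pandas 2.3.3, numpy 2.4.6, matplotlib 3.10.9). Alternatives were other pseudocounts, filters, scalings, folds and pools left out.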

Additional observations from a re-analysis of the deposited data

How the results depend on the processing

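The number of members higher in Lin- cells (66) stayed between 56 and 69 under the 13 alternatives tried. The number higher in Gr1+Mac1+ cells (2) was 1 without the level filter, as TPM, without trend and without any 1 pool (lowest and highest 1), and 12 after median-ratio rescaling. The members' median of 0.83 was 0.49 after median-ratio rescaling and 0.97 as TPM, and 0.78 to 0.88 without 1 pool. Without the replicate block, 67 members were called higher in Lin- cells and 3 lower, and the block decided no other call named here than those of Atp5l and Ndufb11. The sign of the ratio changed in some setting for 12 members of low ratio. After median-ratio rescaling Atp5l was -0.195, Cox7a1 -0.102, Cox7a2l -0.268, Ndufa2 -0.0498, Ndufa3 -0.321, Ndufa6 -0.222, Ndufb3 -0.108 and Ndufs4 -0.285, and as TPM Atp5sl was 0.065, Ndufa1 0.0962, Ndufa13 0.124 and Ndufv3 0.0945. Leaving out 1 pool gave Cox7a1 -0.266 to 0.483, Cox7a2l -0.0249 to 0.118, Ndufa1 -0.150 to 0.0954, Ndufa13 -0.0706 to 0.0297, Ndufa3 -0.0498 to 0.103, Ndufs4 -0.0689 to 0.125 and Ndufv3 -0.130 to 0.0724. Calls were lost with the sign kept for 9 members after median-ratio rescaling and 3 without the WT pool. The cause was not tested.

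Between genotypes, TPM moved the median to -0.0188 in KO and 0.0312 in Het Lin- cells and to 0.00065 in KO and 0.00583 in Het Gr1+Mac1+ cells, while relative to all genes it stood at -0.05, -0.01, 0.03 and -0.06. With a log2 ratio of at least 0.32 in place of the 1.5-fold rule, 1 member was lower in KO and 1 in Het Lin- cells. The shares of all genes were 1.7% and 0.814%. In Gr1+Mac1+ cells, 1 member was higher and 1 lower in KO, and 2 were lower in Het (1.23%, 2.17% and 2.81% of all genes). At 2-fold, 0 were lower in KO and in Het Gr1+Mac1+ cells, and the count with Uqcrb was 0 with a pseudocount of 5 and as TPM. Leaving out Cox4nb, Atp5s and Atp5sl, an alternative chosen after seeing the data, left 64 members higher in Lin- cells and 2 lower. Depth limits the tissue-specific forms, and 1 library per group limits every genotype value.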
